A study of Mus musculus with 38 samples.

Results

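The genes of fatty acid synthesis were followed promoter by promoter in the soleus, a slow postural muscle of the lower leg. The list held 10 genes: *Fasn*, *Acaca*, *Acacb*, *Acly*, *Scd1*, *Scd2*, *Elovl5*, *Elovl6*, *Me1* and *Srebf1*. A promoter belonged to a gene when its highest peak lay within 500 bp of a 5′ end that GENCODE vM21 annotates for the gene on the same strand. By this rule 14 of the 10819 promoter clusters of the series were members, and they covered 9 of the 10 genes. *Elovl6*, an elongase of long-chain fatty acids, had no cluster at its annotated 5′ ends.

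Fatty acids are built in the cytosol from acetyl-CoA. ATP citrate lyase (*Acly*) makes acetyl-CoA from citrate, acetyl-CoA carboxylase turns it into malonyl-CoA, fatty acid synthase (*Fasn*) joins these units into palmitate, and desaturases and elongases then modify the chain. The pathway is known from liver and adipose tissue as active after feeding and low in fasting, while in muscle malonyl-CoA also acts as a brake on the entry of fatty acids into mitochondria.

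Promoter activity was measured in 38 libraries, each from 1 male C57BL/6J mouse, by CAGE, which sequences the capped 5′ ends of RNA. Levels are TPM (tags in each 1000000 tags of the library), a scale that does not depend on gene length. In experiment #1, 4 Pre mice had food on day 1, 8 Mid mice were without food on day 2, in torpor or, as the study notes for some, between bouts of it, and 4 Post mice had food again on day 3. On day 2 there were also 4 Dep mice, which were without food and were touched to keep them out of torpor, 4 HiT mice at a high ambient temperature, and 4 Fed mice. Experiment #2 had 2 Pre, 5 Mid and 3 Post mice of the same kinds, sequenced in another run. The sources differ on food: the study describes the HiT mice as fasted and the Fed mice as fed, while a design text of the record gives the HiT mice food and a condition label calls the Fed mice starved. The respiratory quotients described by the study run as the names say, higher in the Fed than in the Mid and HiT mice, and the group names are used here as names. All mice were sampled at the same hour of the dark phase, and all groups were of 1 inbred strain with no transgene.

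Libraries held 18257657 to 39176649 tags in clusters in experiment #1 and 9359994 to 20914855 in experiment #2. All 28 libraries of experiment #1 showed slow-fibre markers, with a summed level of 7505 to 20859 TPM and 8 of 9 markers present (*Myh7b* had no cluster). Fast-fibre markers, 10 of 10 with a cluster, were about as high. Their median sum in the Mid group was 13843 TPM, beside 15368 TPM for the slow-fibre markers, in experiment #1. In experiment #2 these medians were 28463 and 23250 TPM. Fat was present too: the white adipocyte markers, of which 9 of 12 had a cluster, summed to between 192 TPM (Mid 7) and 2057 TPM (Dep 3) in experiment #1. Of 6 brown fat markers, *Ucp1*, *Dio2*, *Elovl3* and *Otop1* had no cluster. The other 2, *Cidea* and *Ppargc1b*, which muscle also expresses, summed to 18.2 to 29.1 TPM in the Pre, Post and Fed groups and 10.3 to 18.4 TPM in the Mid, Dep and HiT groups of experiment #1. In experiment #1 this sum thus moved with the group pattern of *Fasn* described below, with ranges that just overlapped. In experiment #2 it was 19.6 to 24.7 TPM in the Pre, 17.4 to 29.5 TPM in the Mid and 25.9 to 28.1 TPM in the Post group. There the Mid range overlapped both others. Its part in the results was not tested. The macrophage markers, 8 of 10 of them with a cluster, summed to 156 to 460 TPM in the HiT libraries and to 40.3 to 110 TPM in the other groups of experiment #1, without overlap. In bulk tissue, fewer cells of a type and less RNA per cell cannot be told apart. The comparisons below share libraries (the Mid libraries enter 5 of them in experiment #1), so they are given side by side and are not independent of each other.

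Of the genes, 5 had 1 promoter, 3 had 2 promoters and 1 had 3 promoters. *Acaca*, which encodes the cytosolic acetyl-CoA carboxylase, had its promoters on the plus strand of chromosome 11 (mm10). The upstream one (cluster chr11:84173213-84173534, peak at 84173296) lay in exon 1 of the transcript Acaca-202. The middle one (chr11:84179758-84180060, peak at 84179829) lay 6533 bp further on and 2 bp before the 5′ end of Acaca-203, and the downstream one (chr11:84180169-84180470, peak at 84180332) another 503 bp on. Both of the latter lay in an intron of the longer transcripts. *Srebf1*, which encodes the transcription factor SREBP-1 that activates lipogenic genes, had promoters 10184 bp apart on the minus strand of chromosome 11. The upstream one (chr11:60220502-60220658, peak at 60220606) lies 2 bp before the 5′ end of the SREBP-1a type of transcript. The downstream one (chr11:60210352-60210507, peak at 60210422) lies in exon 1 of the SREBP-1c type, known as the main form in liver and muscle and as responsive to insulin. In the annotation, exon 1 gives 91 coding bases to the former and 19 to the latter, so that the proteins differ at their start.

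The *Srebf1* promoters are shown because they behaved differently (below) and because only their RefSeq windows, 2 of 11 windows for 8 of the genes, contained the CAGE peak. Each stretch runs from 150 bases before the RefSeq start to 30 bases from it on, on the minus strand of GRCm38.p6, the build of mm10. Capitals mark GGGCGG, a box bound by Sp1, and CCAAT, on either strand.

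Srebf1 upstream promoter (chr11:60220598-60220777): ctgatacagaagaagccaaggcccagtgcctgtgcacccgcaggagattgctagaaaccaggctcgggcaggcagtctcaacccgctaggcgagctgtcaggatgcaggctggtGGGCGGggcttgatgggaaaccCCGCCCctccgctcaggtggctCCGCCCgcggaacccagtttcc

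Srebf1 downstream promoter (chr11:60210442-60210621): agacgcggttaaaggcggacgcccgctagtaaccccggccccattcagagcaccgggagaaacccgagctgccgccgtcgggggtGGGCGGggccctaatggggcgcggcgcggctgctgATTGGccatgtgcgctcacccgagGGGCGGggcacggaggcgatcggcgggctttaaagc

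The upstream stretch held GGGCGG 3 times, at −36, −14 and 8 from the RefSeq start, and its CAGE peak lay at 21. The downstream stretch held GGGCGG at −65 and −6 and CCAAT at −30 on the opposite strand, and its CAGE peak lay at 49, beyond the stretch. Neither window of 300 bases held TCACNCCAC (a core of the sterol response element), CACGTG (a form of the E-box) or TATAAA. Only these exact strings were searched, so other forms of the sterol response element or the E-box may be present. Of all 32851 RefSeq promoter windows of this length, 35.7% held GGGCGG, 37.4% CCAAT, 1.24% TCACNCCAC, 7.15% CACGTG and 13.6% TATAAA.

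From the Pre to Mid of experiment #1, the promoters of *Acly*, *Fasn*, *Scd2* and *Me1*, the upstream and downstream promoters of *Acaca* and both promoters of *Srebf1* fell, most of all upstream *Acaca* and *Fasn*. The upstream promoter of *Acacb*, the acetyl-CoA carboxylase of the mitochondrial surface, rose. At an FDR below 0.05 (edgeR, adjusted over all clusters), 8 of 14 member promoters fell and 1 rose. Over all 10776 clusters tested, 14.8% fell and 15.4% rose. The median log2 fold change was −0.79 over the members and 0.006 over all clusters. From the Mid to Post, 7 members rose and 1 fell, where 17.5% of all clusters rose and 17.5% fell, and the medians were 0.55 over the members and −0.014 over all. From the Pre to Post 0 of 14 members passed (DESeq2 called 1, and 1 had an unadjusted p below 0.05), where 1.05% of all clusters rose and 0.798% fell.

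**Figure D1:**
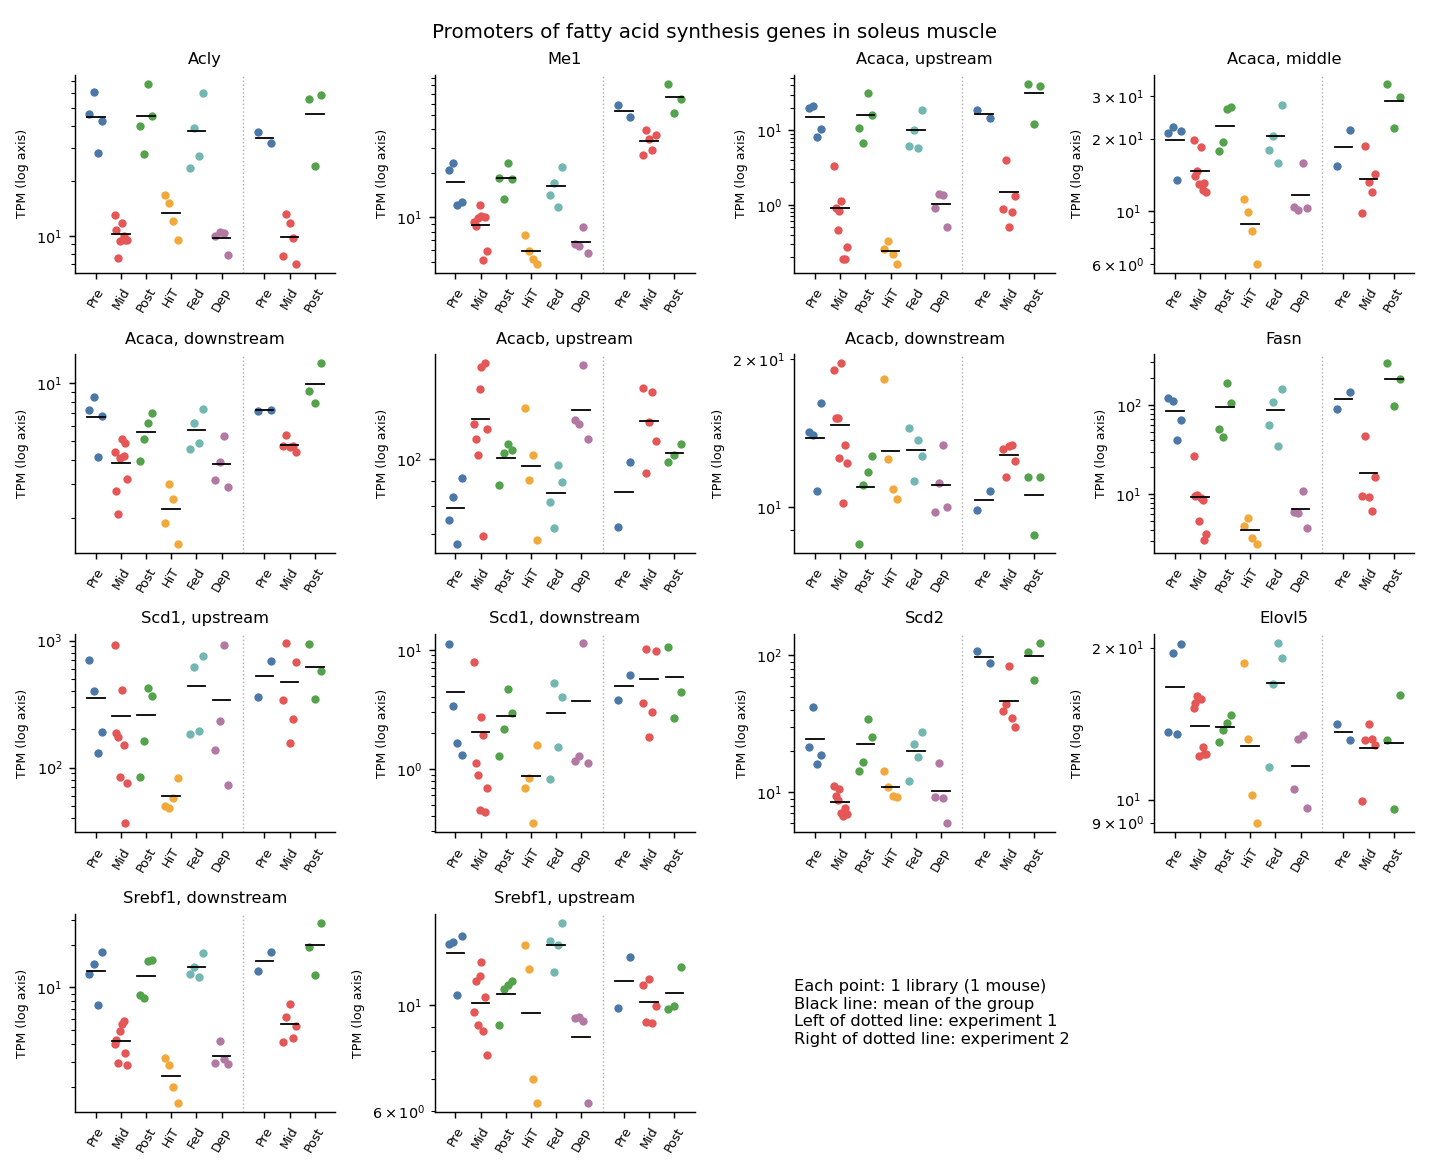
Level of each of the 14 promoters in every library, in TPM on a log axis, by group, with experiment #1 left of the dotted line and experiment #2 right of it; points are mice and black lines are group means. *Fasn*, *Acly*, upstream *Acaca* and downstream *Srebf1* are low in the Mid, HiT and Dep groups (*Fasn* means 9.37, 3.97 and 6.89 TPM) and high in the Pre, Post and Fed groups (84.6, 94.6 and 88.1 TPM).

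At the entry of the pathway, *Acly* (chr11:100527797-100528032, minus strand) had 46.4, 60.8, 28.3 and 42.3 TPM in Pre 1 to 4. In the Mid group it ran from 7.59 to 13 TPM with a median of 9.75, and in Post 1 to 4 it had 39.8, 27.8, 67.8 and 45 TPM. Every Mid library lay below every Pre and Post library. *Acly* fell 4.07-fold on entry into the Mid group (log2 −2.02, SE 0.20, edgeR FDR 1.05e-07) and rose 4.40-fold from the Mid to Post (log2 2.14, SE 0.20, FDR 1.87e-08). The Mid mice were close together, at 10.2 ± 1.66 TPM (SD, n = 8). *Me1*, cytosolic malic enzyme, supplies NADPH for the synthesis (chr9:86695635-86696200, minus strand). It had 21.0, 23.7, 12.1 and 12.7 TPM in the Pre libraries, a median of 9.60 TPM (5.15 to 12.2) in the Mid group and 18.5, 13.4, 23.7 and 18.3 TPM in the Post libraries. Its Mid and Pre ranges just touched, between Mid 4 and Pre 3. It fell by 0.89 on the log2 scale from the Pre to Mid (SE 0.18, edgeR FDR 0.000541) and rose by 1.07 from the Mid to Post (SE 0.18, FDR 5.50e-05).

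The carboxylation step showed promoters of 1 gene that did not move alike. Upstream *Acaca* had 19.9, 21.2, 8.10 and 10.4 TPM in Pre 1 to 4, a median of 0.649 TPM (0.188 to 3.29) in the Mid group and 10.7, 6.84, 31.3 and 15.8 TPM in Post 1 to 4. The Mid libraries held 6 to 86 tags there and the Pre libraries 215 to 620, again without overlap. This was a 16-fold fall (log2 −4.00, SE 0.49, edgeR FDR 1.36e-06), followed by an 18.3-fold rise (log2 4.19, SE 0.49, FDR 3.47e-07). Without Mid 1, the highest Mid library, the changes were −4.67 and 4.86. Middle *Acaca* had 21.2, 22.4, 13.5 and 21.6 TPM in the Pre libraries and a median of 13.6 TPM (12 to 19.7) in the Mid group, and these ranges overlapped. Its change was −0.34 (SE 0.14, edgeR FDR 0.0701) from the Pre to Mid, which passed the threshold without Mid 1 (−0.40, FDR 0.0291), Pre 3 (−0.45, FDR 0.0256) or Fed 3 (FDR 0.0422). It rose 1.52-fold from the Mid to Post (FDR 0.0014). Downstream *Acaca* fell from 6.65 ± 1.83 (SD, n = 4) to 3.85 ± 1.07 TPM (SD, n = 8; log2 −0.70, SE 0.21, edgeR FDR 0.012), a call lost without Pre 2 (−0.60, FDR 0.0591).

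Within each library, the log2 ratio of upstream over middle *Acaca* (TPM + 0.1) averaged −0.49 ± 0.48 (SD, n = 4) in the Pre, −4.34 ± 1.01 (SD, n = 8) in the Mid and −0.69 ± 0.71 (SD, n = 4) in the Post group. No Mid library reached the ratio of any Pre or Post library. The ratio thus changed by −3.86 and then by 3.66 (exact permutation test, two-sided, p = 0.00202 each, the smallest that 4 against 8 allow, and 0.00505 when adjusted over the 10 tests of promoter pairs). With so few tags the size depends on the pseudocount: it was −4.11 and 3.91 with 0.01 TPM, and −2.69 and 2.51 with 1 TPM, at the same adjusted p. The ratio of downstream over middle *Acaca* changed by −0.36 and −0.08 (exact permutation test, adjusted p = 0.231 and 0.76). In the HiT libraries the upstream promoter fell to 5 to 10 tags, or 0.163 to 0.333 TPM, and its ratio to the middle promoter was −4.69 ± 0.22 (SD, n = 4).

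*Acacb* went the other way. Its upstream promoter (chr5:114146109-114146826, plus strand, peak at 114146706 in exon 1 of Acacb-202) had 74.9, 83.3, 67.0 and 91.3 TPM in Pre 1 to 4 and a median of 117 TPM in the Mid group (69.5 to 157). Mid 6 was the 1 Mid library within the Pre range, and the other 7 lay above it. *Acacb* rose 1.60-fold (log2 0.68, SE 0.11, edgeR FDR 3.72e-05). In the Post libraries it had 88.3, 103, 107 and 104 TPM, between the other groups: the change was −0.26 (SE 0.11, FDR 0.0584) from the Mid to Post and 0.42 (SE 0.12, FDR 0.080) from the Pre to Post. The latter was called by DESeq2 (FDR 0.031), in a fit of only these groups (FDR 0.0227), and without Mid 6 (FDR 0.0188) or Mid 7 (FDR 0.0448). The former was called by DESeq2 (FDR 0.0446) and without Mid 3 (FDR 0.0418) or Mid 6 (FDR 0.0086). The downstream promoter, 29219 bp further on at Acacb-205, had 13.8 ± 2.26 (SD, n = 4), 14.7 ± 3.28 (SD, n = 8) and 11 ± 1.84 TPM (SD, n = 4) in the Pre, Mid and Post groups. It fell from the Mid to Post (log2 −0.43, SE 0.12, edgeR FDR 0.0067), a call lost without TMM (FDR 0.113). Its ratio to the upstream promoter changed by −0.50 from the Pre to Mid (exact permutation test, p = 0.0182, adjusted 0.0364), which did not pass without Pre 1 (adjusted 0.0848), Pre 4 (0.0727) or Mid 8 (0.0667).

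*Fasn* (chr11:120823994-120824369, minus strand, peak 13 bp before the 5′ end of Fasn-205) had 120, 110, 40.0 and 68.1 TPM in Pre 1 to 4. In the Mid group it ran from 3.08 TPM in Mid 7 to 26.5 TPM in Mid 1, with a median of 8.79, and in Post 1 to 4 it had 54.3, 43.9, 175 and 105 TPM. Even the highest Mid library stayed below every Pre and Post library. *Fasn* fell 8.52-fold (log2 −3.09, SE 0.43, edgeR FDR 7.65e-06) and rose 9.95-fold (log2 3.32, SE 0.43, FDR 1.88e-06), and over the 28 fits without 1 library the Pre to Mid change ran from −3.50 to −2.83. In the order of the group means, the Post (94.6), Fed (88.1) and Pre (84.6 TPM) groups stood above Mid (9.37), Dep (6.89) and HiT (3.97 TPM). Of the neighbours in this order that were tested, Pre and Mid differed (above), while Pre and Fed (edgeR FDR 0.954) and Mid and Dep (FDR 0.707) did not pass the threshold.

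Among the desaturases, *Scd2* (chr19:44293996-44294245, plus strand) followed *Fasn* while *Scd1* did not. *Scd2* had 21.5, 41.7, 16.2 and 18.6 TPM in Pre 1 to 4, a median of 8.20 TPM (6.69 to 11.1) in the Mid group and 14.3, 16.7, 34.5 and 25.3 TPM in the Post libraries. The Mid range lay below both of the others. It fell 2.67-fold (log2 −1.42, SE 0.23, edgeR FDR 5.16e-05) and rose 2.61-fold (log2 1.39, SE 0.23, FDR 5.02e-05). In the Pre, Post and Dep groups, the highest *Scd2* library was also highest in the sum of Schwann cell markers (Pre 2 with 950, Post 3 with 408 and Dep 2 with 475 TPM). In the Fed and HiT groups these were different libraries. In experiment #2 they were the same in the Pre and Post groups. In its Mid group *Scd2* was highest in Mid 11 (83.2 TPM) and the marker sum in Mid 9 (304 TPM). The sums overlapped between the groups, at 150 to 950 TPM in the Pre and 83.6 to 236 TPM in the Mid group of experiment #1. Of 10 Schwann cell markers 6 had a cluster, and their part in the *Scd2* change was not tested. The upstream promoter of *Scd1* (chr19:44407231-44407744, minus strand) was the most active member, with 700, 398, 131 and 190 TPM in the Pre libraries. In the Mid group it spanned 36.4 TPM (Mid 7) to 915 TPM (Mid 1) with a median of 161, so that the Pre range lay within the Mid range. Its change was −0.43 (SE 0.67, edgeR FDR 0.673) in Pre to Mid and 0.00 in Mid to Post (FDR 1.0). With such a spread between mice, a change was not detectable. The small promoter in the same gene, 954 bp downstream, had 4.41 ± 4.66 (SD, n = 4) and 2.03 ± 2.54 TPM (SD, n = 8) in the Pre and Mid groups (log2 −1.07, SE 0.74, edgeR FDR 0.288), and passed the threshold without Mid 1 (−1.82, FDR 0.0484). *Elovl5*, an elongase of polyunsaturated fatty acids (chr9:77917311-77917526, plus strand), was flat. It had 16.8 ± 3.68 (SD, n = 4), 14 ± 1.75 (SD, n = 8) and 13.9 ± 0.717 TPM (SD, n = 4) in the Pre, Mid and Post groups (log2 −0.16 and −0.03, SE 0.12 each, edgeR FDR 0.329 and 0.882).

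Of the regulator *Srebf1*, the downstream promoter had 12.4, 14.7, 7.5 and 17.7 TPM in Pre 1 to 4, a median of 4.13 TPM (2.85 to 5.84) in the Mid group and 8.86, 8.39, 15.3 and 15.6 TPM in Post 1 to 4. The Mid range lay below both of the others. It fell 2.88-fold (log2 −1.53, SE 0.20, edgeR FDR 2.99e-06) and rose 2.77-fold (log2 1.47, SE 0.20, FDR 3.00e-06). The upstream promoter had 13.4, 13.5, 10.5 and 13.9 TPM in the Pre libraries and a median of 10 TPM (7.85 to 12.3) in the Mid group, with overlap. Its fall of 0.27 on the log2 scale (SE 0.10, edgeR FDR 0.0395) was lost without TMM (FDR 0.18), and without Mid 1, 3, 4, 7 or 8, Pre 1, 2 or 4, or Post 1 (FDR 0.0516 to 0.133). It was 0.05 (FDR 0.757) from the Mid to Post. The log2 ratio of the downstream over the upstream promoter averaged −0.03 ± 0.35 (SD, n = 4) in the Pre, −1.27 ± 0.32 (SD, n = 8) in the Mid and 0.14 ± 0.41 (SD, n = 4) in the Post group. It changed by −1.24 and 1.41 (exact permutation test, two-sided, p = 0.00202 each, adjusted 0.00505), so the promoters of this gene also moved apart.

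**Figure D2:**
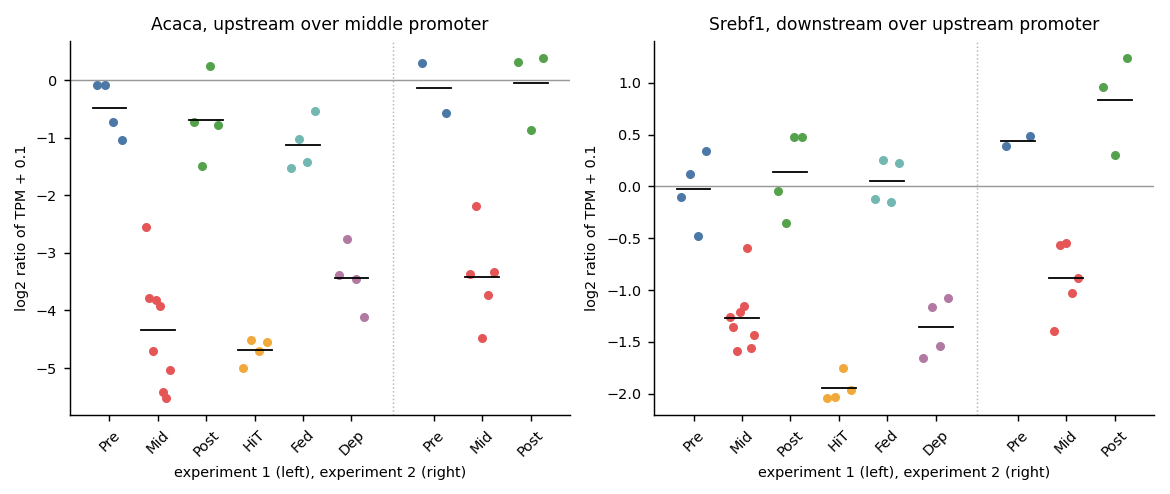
Log2 ratio of TPM + 0.1 within each library between promoters of 1 gene, for *Acaca* (upstream over middle) and *Srebf1* (downstream over upstream); points are mice, black lines group means. Both ratios are low in the Mid, HiT and Dep groups (*Srebf1* means −1.27, −1.95 and −1.36) and near those of the Pre group in the Post and Fed groups (0.14 and 0.05).

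In experiment #2, with fewer mice, the same promoters led. *Fasn* had 90.5 and 140 TPM in the 2 Pre libraries, 9.45, 45, 9.34, 6.44 and 15.4 TPM in Mid 9 to 13, and 291, 97.1 and 196 TPM in Post 5 to 7. Upstream *Acaca* had 18.9 and 14.6, then 0.868, 4.04, 0.499, 0.805 and 1.33, then 42.3, 12.1 and 39 TPM. *Acly* had 36.7 and 32, then 7.72, 13.2, 11.8, 9.67 and 7.04, then 55.6, 24 and 58.7 TPM. For all 3 promoters, every Mid library lay below every Pre and Post library, and Mid 10 was the highest Mid library. At an FDR below 0.05, 4 of 14 members fell and 0 rose from the Pre to Mid (9 had an unadjusted p below 0.05; DESeq2 called 6 lower and 1 higher), where 4.44% of all clusters fell and 5.3% rose. They were upstream *Acaca* (log2 −3.32, SE 0.59, edgeR FDR 0.00725), *Fasn* (−2.66, SE 0.60, FDR 0.0206), *Acly* (−1.75, SE 0.30, FDR 0.00562) and downstream *Srebf1* (−1.40, SE 0.28, FDR 0.0119). Without Mid 10 the changes of *Fasn* and upstream *Acaca* were −3.37 and −4.09. With only 2 Pre mice these calls rest on both: 0 passed without Pre 5 and 2 without Pre 6, fits in which the lone Pre library is taken to vary like the other groups. Within lane 3, which held both Pre libraries and Mid 9 to 12, the changes of these promoters were −3.28, −2.63, −1.65 and −1.40, with FDRs of 0.0271, 0.0609, 0.00552 and 0.0203 (edgeR). Among the other members, *Me1* (−0.63, FDR 0.0593), *Scd2* (−1.04, FDR 0.0627) and upstream *Acacb* (0.55, FDR 0.0748) missed the threshold from the Pre to Mid (edgeR). Each passed it in DESeq2 (FDR 0.0198, 0.0116 and 0.0191). Upstream *Acacb* also missed it from the Mid to Post (−0.30, edgeR FDR 0.201).

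From the Mid to Post of experiment #2, 8 members rose and 0 fell, where 7.73% of all clusters rose and 8.65% fell. *Fasn* rose by 3.41 (SE 0.56, edgeR FDR 0.0022), upstream *Acaca* by 4.20 (SE 0.54, FDR 0.00054) and *Acly* by 2.15 (SE 0.26, FDR 0.000428) on the log2 scale, and without Mid 10 the changes of *Fasn* and upstream *Acaca* were 4.13 and 4.97. The Post libraries were on another lane than all Mid libraries but Mid 13. With lane as a term, 1 member was called (*Acly*, 2.54, FDR 0.0201), and *Fasn* (3.50, FDR 0.123) and upstream *Acaca* (4.38, FDR 0.055) missed the threshold at changes of like size. *Scd2* (log2 1.02, FDR 0.0316) also lost its call without Mid 9, 10, 12 or 13 or Post 5 or 7 (0.85 to 1.00, FDR 0.055 to 0.115). From the Pre to Post 0 of 14 passed (1 had an unadjusted p below 0.05; DESeq2 called 0), where 0.0277% of all clusters rose and 0.0832% fell. Tested directly, the change differed between the experiments at an FDR below 0.05 for 0 of 14 members in Pre to Mid and 0 of 14 in Mid to Post, and for 0.0% of all 10819 clusters in both (edgeR; the likelihood ratio test also called 0 of 14 members, and 0 had an unadjusted p below 0.05). The levels did differ between the runs for *Scd2*, with 16.2 to 41.7 TPM in Pre 1 to 4 against 108 and 87.5 TPM in Pre 5 and 6. *Me1* had 12.1 to 23.7 against 58.7 and 49.0 TPM. Run and mice cannot be told apart here.

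**Figure D3:**
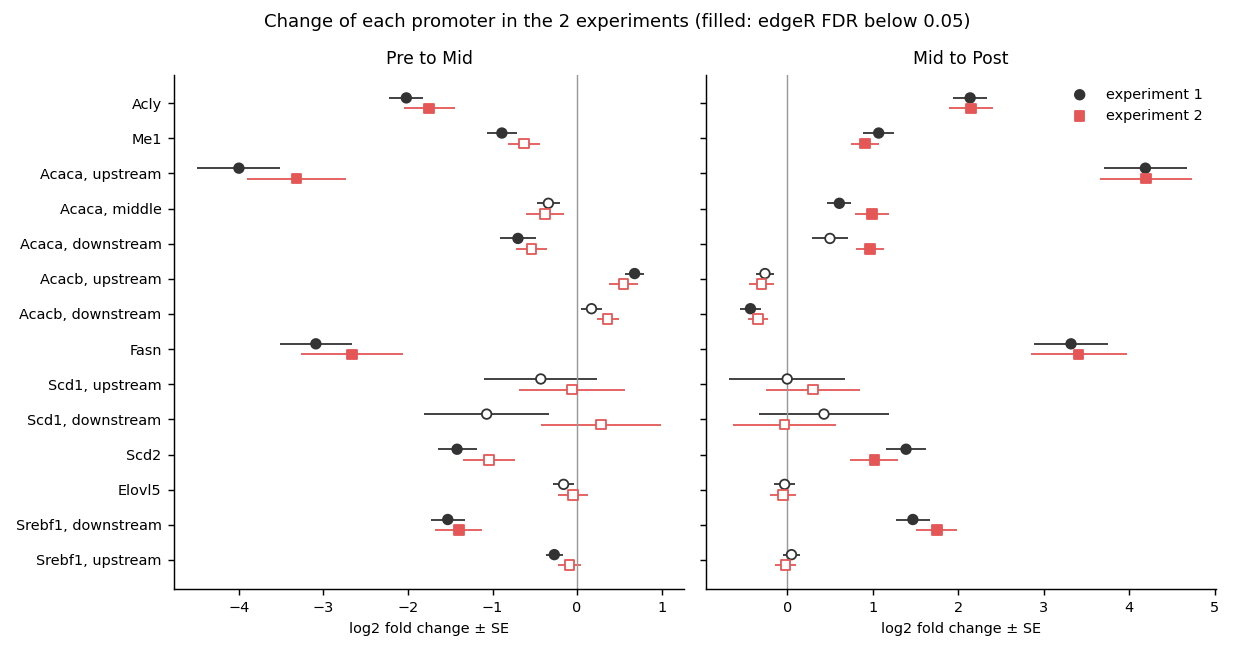
Log2 fold change ± SE of the 14 promoters in Pre to Mid (left) and Mid to Post (right), in experiment #1 (circles) and experiment #2 (squares); filled symbols have an edgeR FDR below 0.05. Upstream *Acaca* and *Fasn* moved most in both experiments (Pre to Mid −4.00 and −3.09, then −3.32 and −2.66), and *Elovl5*, *Scd1* and upstream *Srebf1* lay close to 0 or had wide errors.

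The other groups of day 2 differed from the Mid group in torpor together with touch (Dep), ambient temperature (HiT) or food (Fed, as named). Torpor and these factors cannot be told apart here. The study also reports a metabolic level in the Dep mice like that of the Mid mice that were not torpid when sampled. Dep mice, kept out of torpor, had *Fasn* at 6.34, 6.22, 10.8 and 4.16 TPM and *Acly* at 9.97, 10.5, 10.3 and 7.90 TPM, all within the Mid range. From the Mid to Dep, 0 of 14 members passed (DESeq2 called 0, and 1 had an unadjusted p below 0.05), where 1.16% of all clusters rose and 0.872% fell. The difference in *Fasn* was −0.37 (SE 0.48, edgeR FDR 0.707) and that in *Acly* 0.02 (SE 0.22, FDR 0.978). Changes well above the size of such errors could go uncalled: that of downstream *Acacb* was −0.30 (SE 0.12, edgeR FDR 0.17). From the Pre to Dep, 8 members fell and 1 rose, where 12.1% of all clusters fell and 13.7% rose. *Fasn* fell by 3.46 (SE 0.57, FDR 6.29e-05) and downstream *Srebf1* by 1.80 (SE 0.25, FDR 7.31e-06) on the log2 scale, and *Acacb* rose by 0.85 (SE 0.12, FDR 1.2e-05, edgeR).

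The Fed libraries overlapped those of the Pre group in *Fasn*, *Acly* and upstream *Acaca*. *Fasn* had 60.2, 107, 34.9 and 150 TPM, *Acly* 23.4, 38.7, 27.2 and 59.9 TPM, and upstream *Acaca* 6.17, 10.1, 5.86 and 18.8 TPM. From the Pre to Fed 0 of 14 members passed, and 0 had an unadjusted p below 0.05 or were called by DESeq2, where 5.88% of all clusters rose and 5.32% fell (edgeR). Among 14 promoters such shares leave few calls, so the 0 says little by itself. The change was 0.06 (SE 0.50) in *Fasn* and −0.55 (SE 0.53) in upstream *Acaca*, and changes above the size of these errors could go uncalled. From the Fed to Mid, 8 members fell and 1 rose, where 18.6% of all clusters fell and 16.6% rose. *Fasn* fell by 3.15 (SE 0.43, FDR 4.67e-06), upstream *Acaca* by 3.45 (SE 0.49, FDR 6.41e-06) and *Acly* by 1.76 (SE 0.20, FDR 5.53e-07) on the log2 scale, and without Mid 1 the change of upstream *Acaca* was −4.12. Of the smaller changes, that of middle *Acaca* (−0.39, FDR 0.0334) lost its call without any of 11 libraries, among them Fed 4 (−0.25, FDR 0.201) and Fed 2 (−0.33, FDR 0.121), and that of upstream *Srebf1* (−0.30, FDR 0.018) without Fed 1, Fed 4 or Mid 8 (FDR 0.0531 to 0.0696).

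In the HiT libraries several members were as low as in the Mid group or lower. *Fasn* had 4.40, 5.40, 3.27 and 2.81 TPM, downstream *Srebf1* 3.17, 2.83, 2.00 and 1.53 TPM, and upstream *Scd1* 50.2, 48.0, 57.4 and 82.7 TPM. From the Pre to HiT, 9 members fell and 1 rose, where 14.9% of all clusters fell and 18.5% rose. Upstream *Acaca* fell by 5.73 (SE 0.73, FDR 1.70e-06), *Fasn* by 4.23 (SE 0.59, FDR 5.60e-06) and downstream *Srebf1* by 2.28 (SE 0.25, FDR 2.35e-07) on the log2 scale (edgeR). Upstream *Scd1* also fell, by 2.28 on the log2 scale (SE 0.83, edgeR FDR 0.0362), and lost the call without HiT 1, 2 or 3 or Pre 1 or 2 (−2.26 to −1.66, FDR 0.0568 to 0.142). Upstream *Acacb* rose by 0.47 (SE 0.12, edgeR FDR 0.0037), a call lost without TMM (0.29, FDR 0.329), as was its lower level in the Fed than in the HiT group (−0.39, FDR 0.0106, and −0.18, FDR 0.524, without TMM). The call of *Scd2* (−0.95, FDR 0.010) was lost without Pre 2 (−0.63, FDR 0.0827). From the HiT to Fed, 9 members rose and 1 fell, where 20% of all clusters rose and 23.3% fell, with *Fasn* higher by 4.29 (SE 0.60, edgeR FDR 4.27e-06).

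From the HiT to Mid, 3 of 14 members (21.4%) were higher in the Mid group and 0 lower, where 19.2% of all clusters were higher and 21.8% lower, so the share of members was near that of all clusters. They were middle *Acaca* (log2 0.63, SE 0.15, edgeR FDR 0.00131), downstream *Acaca* (0.69, SE 0.22, FDR 0.0155) and downstream *Srebf1* (0.75, SE 0.23, FDR 0.00917). Middle *Acaca* had 11.2, 9.87, 8.30 and 6.04 TPM in HiT 1 to 4, all below the lowest Mid library at 12 TPM. Downstream *Acaca* lost its call without HiT 1 (0.55, FDR 0.0653), in a fit of only these groups (0.68, FDR 0.0525) and with a replicate block (0.42, FDR 0.209). *Fasn* (1.14, SE 0.51, FDR 0.0751) and upstream *Acaca* (1.73, SE 0.73, FDR 0.0605) missed the threshold in edgeR and passed it in DESeq2 (FDR 0.0371 and 0.00722), and *Fasn* also passed without Mid 7 (1.27, FDR 0.0423) or Mid 8 (FDR 0.0471). Upstream *Acaca* passed without Mid 6, 7 or 8 or Post 3 (FDR 0.0369 to 0.0422). *Me1* (0.47, FDR 0.0551) and upstream *Scd1* (1.85, FDR 0.0517) likewise missed it in edgeR and passed in DESeq2 (FDR 0.0354 and 0.0209), in 6 and 5 of the 9 alternatives in all. In the other direction, *Acly* (−0.48, SE 0.21, edgeR FDR 0.0749) and *Scd2* (−0.47, SE 0.24, FDR 0.124) were lower in the Mid than in the HiT group. They also missed the threshold, and were called in 2 and 1 of the 9 alternatives. The macrophage markers were higher and the slow-fibre sum lower in the HiT libraries (median 12153 against 15368 TPM in the Mid group), and their part in these differences was not tested.

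**Figure D4:**
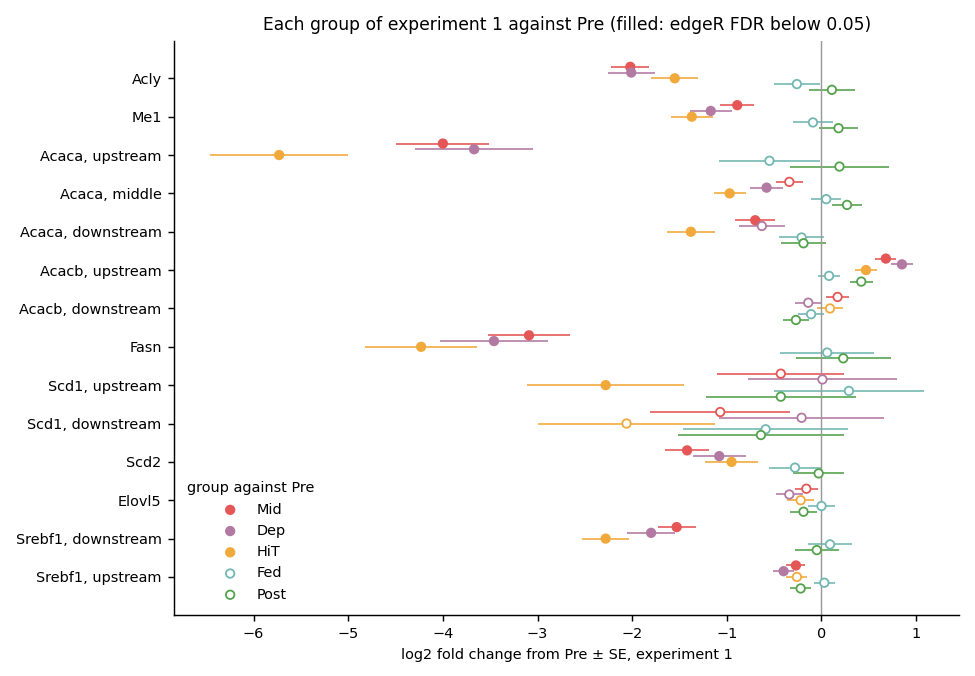
Log2 fold change ± SE of each promoter against the Pre group, for the Mid, Dep, HiT, Fed and Post groups of experiment #1; filled symbols have an edgeR FDR below 0.05. The Mid, Dep and HiT groups lie to the left for *Fasn* (−3.09, −3.46 and −4.23) and to the right for upstream *Acacb* (0.68, 0.85 and 0.47), while no Fed or Post symbol is filled.

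The adipocyte marker sum of a library, an RNA level and not a measure of fat mass, moved with some members. Over the 8 Mid libraries of experiment #1, upstream *Scd1* followed the adipocyte marker sum with Pearson's r = 0.97 on the log2 scale (exact permutation p = 0.000347, 0.00243 when adjusted over the 14 promoters) and Spearman's rho = 0.88 (exact permutation p = 0.00724, adjusted 0.0507), and r was 0.94 without the 2 libraries farthest from the median. For *Fasn* r was 0.93 (exact permutation p = 0.00226, adjusted 0.0105), rho 0.79 (p = 0.0279, adjusted 0.13) and r 0.81 without these 2. Downstream *Scd1* had r = 0.98 (exact permutation, adjusted p = 0.000694) and rho = 0.98 (adjusted 0.00556). Middle *Acaca* had r = 0.83 (exact permutation, adjusted p = 0.0341) and rho = 0.62 (adjusted 0.23). Upstream *Acaca* had r = 0.70 (exact permutation, adjusted p = 0.143), and 0.19 without these 2 libraries. For *Acly* r was 0.67 (exact permutation p = 0.066, adjusted 0.143), and for *Scd2* and *Me1* it was 0.20 and −0.05 (exact permutation, adjusted p = 0.792 and 0.905). The marker sums of the groups overlapped widely, with medians of 742, 468 and 581 TPM in the Pre, Mid and Post groups, and of the 9 adipocyte marker promoters 1, *Plin1*, fell from the Pre to Mid (edgeR FDR 0.039). With the marker sum as a covariate, *Fasn* changed by −2.88 and 3.32 (edgeR FDR 8.14e-08 and 4.91e-09), upstream *Acaca* by −3.80 and 4.24, *Acly* by −1.91 and 2.10 and downstream *Srebf1* by −1.46 and 1.44, close to their values without it. The covariate is a marker RNA level, so it cannot show in which cell type these promoters changed, and this was not tested. With this covariate, upstream *Scd1* was higher in the Mid than in the HiT group (1.33, edgeR FDR 0.000142), while Mid and Pre differed by −0.15 (FDR 0.658). In experiment #2 the covariate gave calls for upstream *Scd1* in both comparisons, −0.85 in Pre to Mid (edgeR FDR 0.017) and 0.83 in Mid to Post (FDR 0.00534). It also moved the Pre to Mid changes there to −3.48 for *Fasn* and −4.23 for upstream *Acaca*, and in experiment #1 the Pre to HiT change of upstream *Scd1* to −1.48 (FDR 0.000183) and its HiT to Fed change to 1.89.

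**Figure D5:**
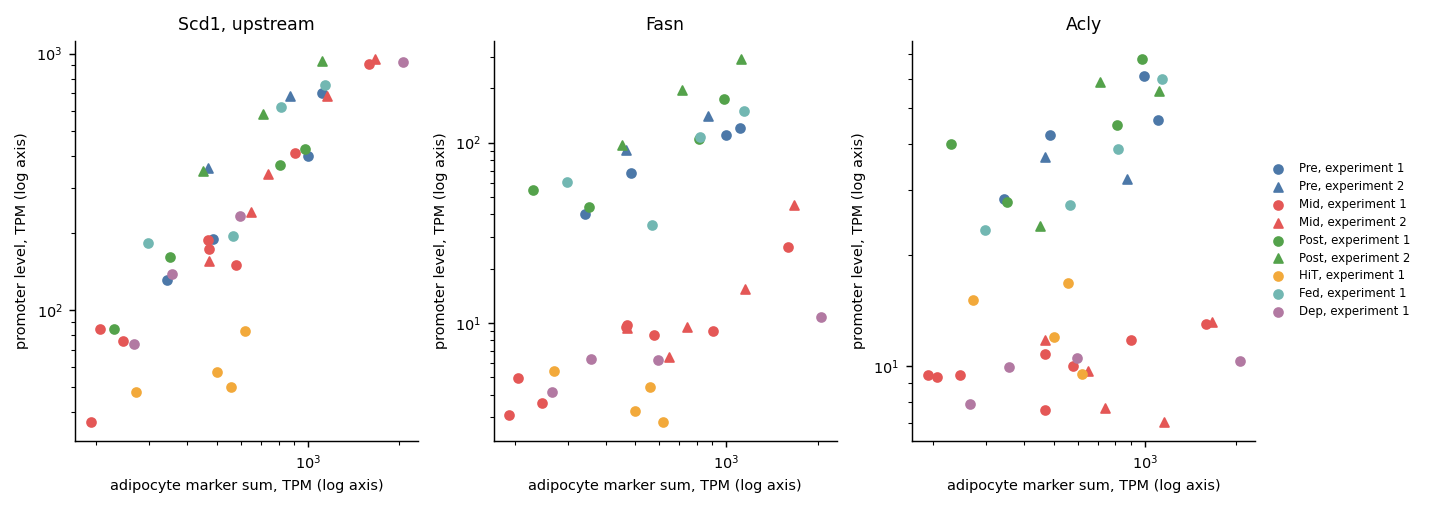
Level of upstream *Scd1*, *Fasn* and *Acly* in each library (TPM, log axis) against the summed level of 9 white adipocyte marker promoters (TPM, log axis), by group and experiment. *Scd1* has 36.4 TPM in Mid 7, where the marker sum is low, and 930 TPM in Dep 3, where it is high. The HiT libraries do not follow this: they hold 48.0 to 82.7 TPM of *Scd1* at marker sums of 271 to 619 TPM. *Fasn* and *Acly* form a low band of Mid, HiT and Dep libraries and a high band of Pre, Post and Fed libraries.

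Over the 28 libraries of experiment #1, the members whose log2(TPM + 0.1) was most like that of *Fasn* were upstream *Acaca* (r = 0.97), *Acly* and downstream *Srebf1* (0.93 each) and *Me1* (0.90), and upstream *Acacb* was least like it (−0.43). Among annotated promoters of other genes, the most alike were those of *Pnpla3*, a lipid droplet protein (0.96 over 28 libraries and 0.99 over the 10 of experiment #2), *Slc25a1*, the mitochondrial citrate carrier (0.95 and 0.94), *Thrsp*, or Spot 14, a lipogenic regulator (0.94 and 0.96), *Slc25a35* (0.92 and 0.96) and *Agpat2*, an acyltransferase of glycerolipid synthesis (0.91 and 0.89). *Pnpla3* had 22, 2.93 and 14.2 TPM on average in the Pre, Mid and Post groups, close in shape to *Fasn*. The most opposed were those of *Pdk4*, a kinase that limits glucose oxidation (−0.88 and −0.92), *Tacc2* (−0.88 and −0.92), *Slc25a34* (−0.86 and −0.96), *Acot2*, a mitochondrial acyl-CoA thioesterase (−0.86 and −0.93), and *Ucp3*, an uncoupling protein of muscle (−0.85 and −0.89). These values are descriptions: the libraries share groups and adipocyte marker levels, and most of the variation lies between the groups.

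The wider pathway moved in part. Medians of the log2 fold change are given for experiment #1 first. In Pre to Mid they were −0.16 over lipogenic regulators, −0.16 over supply genes and −0.29 over other elongation and desaturation genes. They were −0.08 over mitochondrial fatty acid synthesis, 0.25 over glycerolipid synthesis and 0.00 over the control of malonyl-CoA, beside 0.006 over all clusters. In Mid to Post these medians were 0.20, 0.19, 0.31, −0.03, −0.29 and 0.01, beside −0.014 over all clusters. In experiment #2 they were, in the same order, −0.21, −0.06, 0.01, −0.11, 0.11 and −0.07 in Pre to Mid, beside 0.004 over all clusters. In Mid to Post of experiment #2 they were 0.26, 0.17, 0.31, −0.03, −0.13 and 0.07, beside −0.013. In experiment #1, of 14 promoters of lipogenic regulators, 6 fell and 1 rose in Pre to Mid, and 7 rose and 1 fell in Mid to Post (edgeR). The lists that follow are also counted in experiment #1 unless named otherwise. For all of these lists, the shares of all clusters were 14.8% lower and 15.4% higher in Pre to Mid, and 17.5% in each direction in Mid to Post. The promoters named from each list were chosen for passing in both comparisons, so that both changes of each are a description. *Thrsp* went from 115 ± 52.6 (SD, n = 4) to 31 ± 9.70 (SD, n = 8) and back to 83.5 ± 41.2 TPM (log2 −1.80, FDR 5.07e-05, then 1.39, FDR 0.000705). Its paralog *Mid1ip1*, which promotes the polymerization of acetyl-CoA carboxylase, went from 113 ± 11.5 to 35.6 ± 9.03 and 129 ± 3.23 TPM (log2 −1.55, FDR 2.88e-07, then 1.83, FDR 1.21e-08). *Fbxw7*, which targets SREBP for degradation, and *Insig1*, which retains it in the endoplasmic reticulum, fell by 0.94 and 0.87 and rose by 0.95 and 0.65 on the log2 scale.

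Of 16 promoters for the supply of acetyl-CoA and NADPH, 5 fell and 1 rose from the Pre to Mid, where 14.8% of all clusters fell. *Slc25a1* went from 27.2 ± 9.35 (SD, n = 4) to 9.61 ± 5.87 (SD, n = 8) and 26.5 ± 8.78 TPM (log2 −1.43, edgeR FDR 0.00119, then 1.46, FDR 0.000819). *Pcx*, pyruvate carboxylase, fell by 2.09 (SE 0.51, FDR 0.00284) and *Tkt*, transketolase, by 1.34 (SE 0.37, FDR 0.00802) on the log2 scale, while *Pgd*, of the pentose phosphate pathway, fell by 0.43 (FDR 0.028). Of 11 promoters of other elongation and desaturation genes, 4 fell and 0 rose, beside 14.8% and 15.4% of all clusters: they were *Fads1* (log2 −0.68, FDR 0.00263), *Fads2* (−0.48, FDR 0.0224), *Fads6* (−0.44, FDR 0.00827) and *Hacd1* (−0.32, FDR 0.00655). Of 5 promoters of mitochondrial fatty acid synthesis, a separate pathway that makes the precursor of lipoic acid, 0 passed in Pre to Mid and 1 rose in Mid to Post (edgeR).

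Of 12 promoters of glycerolipid synthesis, 5 were higher and 1 lower in the Mid than in the Pre group, beside 15.4% and 14.8% of all clusters. *Agpat2* fell (51.0 ± 23.1 to 15.1 ± 4.18 TPM, log2 −1.68, edgeR FDR 5.14e-05), while *Gpat3* (log2 1.47, FDR 7.40e-06), *Agpat3* (0.86, FDR 6.67e-07) and *Lpin1* (0.63, FDR 0.00696) rose. Of 9 promoters for the control of malonyl-CoA, 3 fell and 1 rose in experiment #1, and 0 fell and 1 rose in experiment #2, numbers too small to read against the 14.8% and 15.4% of all clusters in experiment #1. The one that rose was *Mlycd*, malonyl-CoA decarboxylase, which breaks malonyl-CoA down: it went from 47.4 ± 0.921 (SD, n = 4) to 115 ± 46.1 (SD, n = 8) and 41.2 ± 14.2 TPM (log2 1.34, FDR 3.97e-05, then −1.52, FDR 6.53e-06). *Prkaa1*, a catalytic subunit of AMPK, the kinase that inhibits acetyl-CoA carboxylase, fell by 0.35 (FDR 0.0173) and rose by 0.50 (FDR 0.000753) on the log2 scale (edgeR).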

How the data were processed

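Capped RNA 5′ ends were sequenced by nAnT-iCAGE from 38 soleus samples. The authors mapped the reads to mm10 with BWA and HISAT2 per the labels, versions not given in the sources used here, and grouped start sites into clusters. The counts deposited by the authors are whole tags per cluster and library, and the deposited TPM are those tags scaled to 1000000 per library. Clusters were assigned to GENCODE vM21 5′ ends within 500 bp on the same strand, and positions are 1-based. The test on counts was the quasi-likelihood F test of edgeR 4.0.16 (R 4.3.3, TMM scaling), in 1 fit of the 28 libraries of experiment #1 and 1 of the 10 of experiment #2, with group as the only term and Benjamini-Hochberg FDRs over all clusters with a tag. The change between experiments was tested as an interaction over all 38 libraries. "X to Y" is Y minus X, and SE is the absolute log2 fold change divided by the square root of F. Ratios of promoters used TPM + 0.1 and exact permutation tests. No genome was used, so motifs were searched in RefSeq windows of 250 bases before to 50 after a start. Alternatives were the likelihood ratio test, DESeq2 1.42.0, other scalings and filters, single groups, covariates, lane, a replicate block and each library left out. The scripts were tested on simulated data. The members and lists were chosen with earlier results of these data known. Named genes were all members, up to 4 promoters per list with the largest change among those with an FDR below 0.05 in both Pre to Mid and Mid to Post, and the 5 most and least like *Fasn*. Each library is 1 mouse, so p-values measure the spread between mice. The lowest chi-square per cluster over 72 pairs of libraries of a group was 12.4, so none were duplicates.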

Additional observations from a re-analysis of the deposited data

Results flagged for a closer look

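Dixon's test for 1 sample apart from the rest of its group was applied to each promoter in each group of 4 to 8 libraries, 98 groups of values in all, and it marked 12 values. Chance alone marks about 1 in 20 groups. In Mid 1 of experiment #1, *Fasn* (26.5 TPM, others 3.08 to 9.71), upstream *Acaca* (3.29 TPM, others 0.188 to 1.13), upstream *Scd1* (915 TPM, others 36.4 to 408) and downstream *Scd1* (8.0 TPM, others 0.439 to 2.76) stood above the other Mid libraries. In Mid 10 of experiment #2, *Fasn* (45 TPM, others 6.44 to 15.4) and upstream *Acaca* (4.04 TPM, others 0.499 to 1.33) did so. In Dep 3, middle *Acaca* (15.9 TPM, others 10.1 to 10.4) and downstream *Scd1* (11.4 TPM, others 1.12 to 1.28) did so. These 3 libraries also had the highest adipocyte marker sums of their groups, 1592, 1666 and 2057 TPM, and the part of fat in these values was not tested.

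Middle *Acaca* was low in Pre 3 (13.5 TPM, others 21.2 to 22.4). *Scd2* was high in Mid 11 of experiment #2 (83.2 TPM, others 30.2 to 44.5). Downstream *Srebf1* was high in Dep 2 (4.16 TPM, others 2.89 to 3.11), and upstream *Srebf1* was low in Dep 4 (6.24 TPM, others 9.24 to 9.43).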

How the results depend on the processing

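Of 6034 recomputed values for single promoters and ratios, 73 lost a call, 122 gained one and 0 changed sign past the threshold. In experiment #1 the calls of *Fasn*, upstream *Acaca*, *Acly*, *Scd2*, *Me1* and downstream *Srebf1* in Pre to Mid, Mid to Post and Fed to Mid held under all 9 alternatives and without each of 28 libraries. The count of members called moved by more than 1.5 times in these cases, and the cause was not tested. For HiT to Mid (3 members) it was 7 with DESeq2, 7 with the likelihood ratio test and 8 with the adipocyte covariate (7 higher, 1 lower, *Acly*). It was 5 with all 38 libraries, 5 with only the compared groups (3 higher, 2 lower, *Acly* and *Scd2*) and 2 to 7 with 1 library left out. With assignment within 100 bp, which leaves fewer promoters, HiT to Fed and Pre to HiT (10 each) gave 6 each. For Pre to Post of experiment #1 (0), DESeq2, all 38 libraries, only the compared groups and the replicate block gave 1 each (upstream *Acacb*), and leaving out 1 library gave 0 to 1. For Pre to Mid of experiment #2 (4), DESeq2, the adipocyte covariate and the likelihood ratio test gave 7 each, and leaving out 1 library gave 0 to 6. For Mid to Post of experiment #2 (8), lane as a term gave 1.

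No general pairing of mice by replicate number was seen. Over 60 pairs of libraries with the same number the correlation of deviations ran from −0.536 to 0.623 (median 0.0433), with 27 over 0.1. Over 180 pairs with other numbers the median was −0.00475. With such a spread, this check cannot exclude a pairing of some mice. With a replicate block the count of members called was 8 in Pre to Mid, 9 in Mid to Post, 4 in HiT to Mid, 9 in Fed to Mid, 9 in Pre to HiT, 9 in Pre to Dep, 10 in HiT to Fed, 1 in Pre to Post, and 0 in Mid to Dep and Pre to Fed. Depth limits upstream *Acaca*, which had 5 to 10 tags in the HiT libraries and 6 to 86 in the Mid libraries.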
